A study of Ovis aries with 60 samples.

Results

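The cytosines described here are single positions outside CG sites at which sperm DNA was methylated in some F0 rams and almost unmethylated in others. They were chosen by their measured F0 methylation levels: on chromosomes 1 to 26 of the sheep assembly Oar_rambouillet_v1.0, a cytosine was kept where more than 50% of its reads were methylated in at least 1 ram and fewer than 10% in at least 1 other. The rule kept 11745 of 8676521 listed autosomal CHH cytosines (0.135%) and 2975 of 2158664 listed autosomal CHG cytosines (0.138%), so 14720 of 10835185 in all. They are called polymorphic cytosines below, a name for the range of their levels only. Because F0 levels chose them, every F0 value is a description, counts of F0 cytosines past a test's threshold included. Diet was tested only in the F1 and F2 generations. These descend from the same rams, so their levels are not independent of that choice.

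Sperm DNA of Polypay sheep was read by whole-genome bisulfite sequencing in 40 samples. The 10 F0 rams were, per the study, 5 control rams and the 5 methionine rams that were their twins. In each pair 1 brother ate a control diet and the other the same diet with encapsulated methionine, a methyl donor, added between weaning and puberty. The 5 methionine rams carry numbers ending in T (3T, 5T, 9T, 11T and 23T) and the 5 control rams numbers ending in C (4C, 6C, 10C, 12C and 24C). The F1 generation is represented by 10 pools of sperm DNA from several animals each, numbered like the F0 sires, and the F2 generation by 20 single rams, 2 descending from each F0 sire through 1 F1 ram per sire. All dams were untreated, and F1 and F2 animals ate the control diet. The labels do not say which F0 rams were brothers, nor whether a pool held only sons of the sire whose number it carries, and sires' groups of ewes differed.

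In mammals most DNA methylation sits at CG sites, cytosines directly before a guanine, where a maintenance enzyme copies the mark to the new strand after each replication. CHH and CHG cytosines, where H stands for A, C or T, lack this copying, and methylation there is laid down by the de novo DNMT3 enzymes and is best known from oocytes, neurons and embryonic stem cells. Bisulfite turns an unmethylated cytosine into a base read as T, so a read with T counts as unmethylated whatever the origin of the T, and the context of each cytosine is taken from the reference sequence. The rams' own sequences at these positions were not analysed here, and neither were bases, genes or repeats around them, since no sequence or annotation of this assembly was used.

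A methylation level below is the share of reads at a cytosine that were methylated, in percent, and differences between levels are in percentage points. A cytosine is listed for a generation only where no sample of that generation had fewer than 10 reads on it. The median coverage of a sample at listed CHH cytosines lay between 18 and 34 reads for F0 rams, between 16 and 33 for pools, and between 12 and 39 for F2 rams. The polymorphic cytosines were covered like the rest: the median over cytosines of the mean F0 coverage was 23.1 reads for polymorphic CHH cytosines against 23.8 for all listed ones, and 22.5 against 23.3 for CHG. The tissue could be checked against marker genes only in F2, where 20 RNA libraries exist. Counts scaled to library size (CPM), summed over 10 late spermatid and sperm genes, ranged from 185 to 9769 in the methionine line and 39.7 to 10542 in the control line, those of 6 leukocyte genes from 95.5 to 830 and 62.8 to 1716, and those of the 5 of 6 epithelial genes in the table from 79.3 to 1099 and 49.1 to 516. No marker in the table was at 0 in all libraries, and the part of other cells in the methylation levels was not tested.

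The background against which the polymorphic cytosines stand is almost unmethylated. Over all listed autosomal cytosines, 48.3% of CHH and 46.8% of CHG positions had 0 methylated reads in all 10 rams, and 99.7% of all levels in both contexts were under 10%. Levels from 30 to 70% made up 0.0771% (CHH) and 0.0765% (CHG) of those levels, and levels of 80% or over 0.0346% and 0.0375%. Few other cytosines had high levels: 3387 CHH and 885 CHG cytosines exceeded 50% in some ram without being under 10% in any, and 798 and 218 of these exceeded 50% in every ram.

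At polymorphic cytosines the F0 levels gathered in 3 bands. In CHH context 44.7% of the levels were under 10% (40.03% were exactly 0), 36.2% lay from 30 to 70%, and 10.6% were 80% or over. Another 6.65% lay between 10 and 30% and 1.78% between 70 and 80%, ranges narrower than the middle band. In bins of 5 points, CHH levels fell to 0.743% from 10 to 15% and 0.874% from 75 to 80%. The bin from 25 to 30% held 2.95% and that from 80 to 85% held 1.22%. CHG cytosines had the same order, with 44.7% under 10%, 36.8% from 30 to 70%, 11.1% at 80% or over, and 5.70% and 1.70% in the gaps. The rule itself places 1 level over 50% and 1 under 10% at each cytosine, and its share in this pattern was not measured. In the levels resting on at least 30 reads, 37.1% of CHH and 38.2% of CHG levels lay from 30 to 70%. In bins of 5 points the highest share of the middle band was 7.03% of CHH levels, from 50 to 55%, just above the threshold of the rule. In F2 rams, whose levels the rule did not use, that bin held 5.73% and the bin from 40 to 45% held 6.15%. In F0 the upper band peaked at its end, with 5.07% from 95 to 100%.

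**Figure D1:**
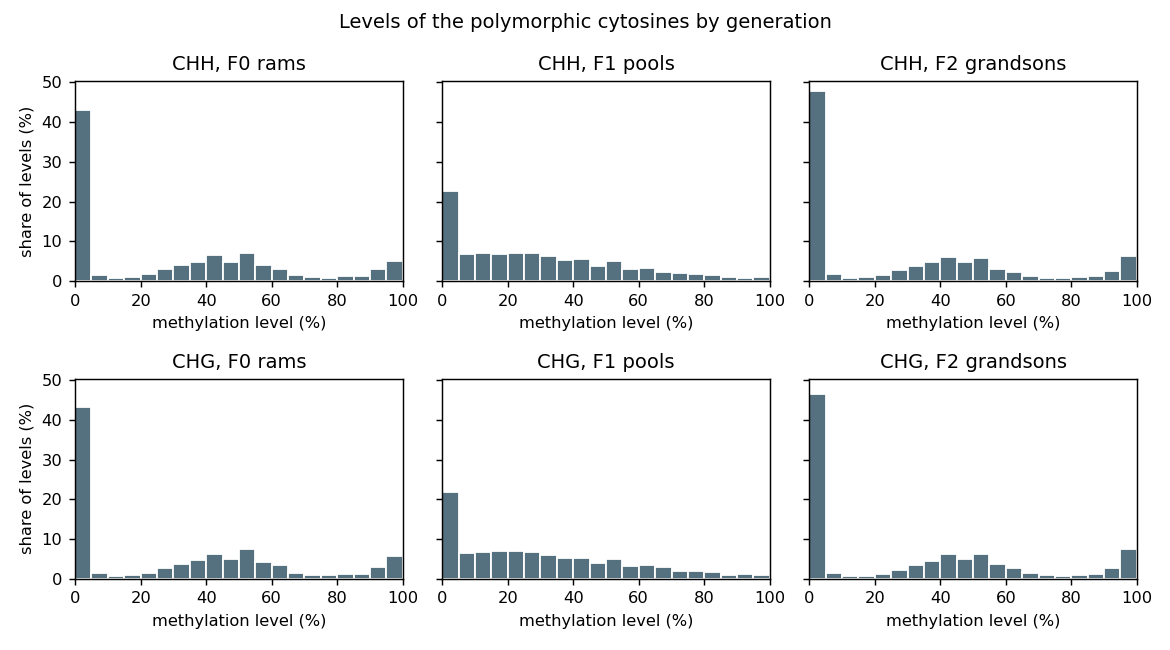
Percent of methylation levels of polymorphic cytosines in bins of 5 percentage points, for F0 rams, F1 pools and F2 grandsons, CHH above and CHG below. F0 and F2 rams show separate masses at 0%, near 50% and near 100%, while the F1 pools have 28.1% (CHH) and 27.3% (CHG) of their levels between 10 and 30%.

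The bands occurred together at single positions. All 3 bands were present among the 10 rams at 5566 CHH and 1444 CHG cytosines, and each held at least 2 rams at 1849 and 481. No ram fell between the bands at 6423 CHH and 1763 CHG cytosines. At least 1 ram was at exactly 0% at 11430 CHH and 2905 CHG cytosines, and at least 1 at exactly 100% at 2528 and 684. The median over cytosines of the highest level was 77.3% (CHH) and 79.3% (CHG), and of the lowest level 0 in both.

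Levels over 50%, a threshold that lies within the middle band, were mostly found in few rams. A level over 50% occurred in 1 ram only at 4303 CHH (36.6%) and 1030 CHG (34.6%) cytosines, and in 1 to 3 rams at 8727 (74.3%) and 2129 (71.6%). Where it occurred in 1 ram only, that ram was at 80% or over at 17.1% of CHH and 17.8% of CHG cytosines. At least 5 of the 10 rams were under 10% at 48.5% of CHH and 48.8% of CHG cytosines. Each ram contributed: between 2697 and 3206 CHH and between 749 and 861 CHG cytosines exceeded 50% in a given ram.

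The thresholds have cytosines close to them on either side, shown here by those with at least 30 reads in every ram that lie nearest to them. The CHH cytosine just inside the upper threshold, at position 47704593 on chromosome 6 (plus strand), reached 50.5%, and the one just outside, at 76833341 on chromosome 5 (minus strand), 50%. Just inside the lower threshold, position 46575424 on chromosome 17 (plus strand) had a lowest level of 9.52%, and just outside it, position 185901274 on chromosome 1 (minus strand) one of 10.3%. For CHG the pair at the upper threshold were position 52045332 on chromosome 19 (plus strand), with a highest level of 50.4%, and position 193991008 on chromosome 1 (minus strand), with 50%. The pair at the lower threshold were position 3106747 on chromosome 22 (plus strand), with a lowest level of 8.82%, and position 24741773 on chromosome 6 (minus strand), with 15.1%.

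Polymorphic cytosines were single positions scattered over the genome. Median spacing between neighbours of the same context was 104755 bp for CHH and 509309 bp for CHG, and only 25 of 11719 neighbouring CHH pairs and 1 of 2949 CHG pairs lay within 10 bp. Their density was lowest on chromosome 10, at 10.5 (CHH) and 10.2 (CHG) per 10000 listed cytosines, and highest on chromosome 24 for CHH (16.5) and chromosome 26 for CHG (20.8). Both strands held similar numbers, with 49.5% of CHH and 49.3% of CHG positions on the plus strand.

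The cytosines next to them stayed low in the same rams. Within 20 bp on the same strand, 11429 CHH and 2868 CHG polymorphic cytosines had another listed CHH or CHG cytosine. In the rams where the polymorphic cytosine was over 50%, the mean level of that neighbour was 0.448% (CHH) and 0.445% (CHG). In the rams where it was under 10%, the neighbour had 0.415% and 0.378%. In CHH, 99.6% of the neighbour's levels were below 10% even where the polymorphic cytosine was over 50%, so the high level did not extend to these neighbours. Read depth differed little, the median ratio of relative coverage in rams over 50% to rams under 10% being 0.950 and 0.969.

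Polymorphic cytosines were seldom directly followed by another listed cytosine, a measure the rule did not use. Only 136 of the CHH positions (1.16%) were so followed on their strand, against 20.4% of all listed autosomal CHH cytosines. In CHG context 11 positions (0.370%) were so followed, against 1.81%. Among polymorphic cytosines with at least 20 reads in every ram the shares were 2.63% (CHH) and 0.810% (CHG). The base before showed no such gap, since 17.7% of CHH and 13.9% of CHG positions were directly preceded by a listed cytosine, against 16.8% and 14.7% of all. The second base after the cytosine was a listed cytosine for 18.7% of polymorphic and 17.2% of all CHH positions. Of the cytosines over 50% in every ram, 0 of 798 (CHH) and 0 of 218 (CHG) were directly followed by one. These shares were not tested, and they count only following cytosines that were themselves listed.

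F0 rams of consecutive number resembled each other most. Over the CHH cytosines, the mean absolute difference in level was 22.1 to 23.6 points between the rams of the pairs 3T and 4C, 5T and 6C, 9T and 10C, 11T and 12C, and 23T and 24C, and 25.9 to 35.1 points between all other pairs. The CHG values were 21.7 to 24.4 points against 25.6 to 35.5. For 10 of 10 rams in each context the nearest ram was the one of consecutive number. In these pairs 1 ram was at 80% or over and the other under 10% at 2.26 to 4.57% of CHH cytosines, against 2.86 to 10.2% in other pairs. Of the 1057 CHH cytosines over 10% in exactly 2 rams, the 2 had consecutive numbers at 526 (49.8%), and at 134 of 268 (50%) in CHG, although only 5 of the 45 possible pairs are consecutive. Each such pair joins a methionine and a control ram, and the labels do not say that consecutive numbers are brothers.

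Of the polymorphic cytosines, 8621 CHH and 2202 CHG positions were listed in F1, 4475 and 1060 in F2, and 3788 and 904 in both. The remainder had fewer than 10 reads in some sample of that generation and were not analysed there. In single F2 rams the pattern returned: 3869 of the 4475 CHH (86.5%) and 930 of the 1060 CHG cytosines (87.7%) again had 1 level over 50% and another under 10%, and only 94 and 21 never exceeded 10%. Of all listed autosomal cytosines, 0.200% (CHH) and 0.193% (CHG) met that rule in F2. In the pools, where several animals share a sample, 3978 CHH (46.1%) and 1034 CHG cytosines (47.0%) met it, against 0.0794% and 0.0802% of all, and 29 and 6 never exceeded 10%. With 20 rams in F2 and 10 pools in F1, a level past each threshold could arise more readily in F2, so the shares of the 2 generations are not like for like. Since the F2 and F1 animals descend from the rams whose levels chose the cytosines, these shares are descriptions.

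The pools differed from single animals more in their bands than in their mean. Mean level over the polymorphic CHH cytosines was 30.2% for the F0 rams, 28.8% for the pools and 28.1% for the F2 rams, and over CHG 30.8%, 29.9% and 29.96%. In the pools 29.3% of CHH levels were under 10%, 28.1% between 10 and 30%, 34.9% from 30 to 70%, and 4.21% at 80% or over. The single F2 rams had 49.6%, 5.89%, 32% and 10.9% in the same bands. At those same CHH cytosines the F0 rams had 45.4%, 5.77%, 37.2% and 10.1%, so the share under 10% was lower and the middle band fuller in F0 than in F2. The rule required an F0 level over 50% at each cytosine and set no such condition on F2. No difference between generations is therefore read from these shares. Over all polymorphic CHH cytosines listed in each generation, 11745 in F0 and 4475 in F2, the share under 10% ranged from 43.2 to 46.3% over the F0 rams and from 47.5 to 52.0% over the F2 rams, which did not overlap. In CHG these ranges did overlap, at 42.7 to 46.1% over the F0 rams and 44.9 to 52.1% over the F2 rams. The same 4 bands of CHG levels held 28.5%, 27.3%, 35.7% and 4.75% in the pools and 47.9%, 4.83%, 33.5% and 12.2% in F2 rams.

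Each sire was nearest to the pool that carries its number. The mean absolute difference between sire and own pool was 14.99 to 18.6 points over CHH (mean 16.6 ± 1.16, SD, n = 10 sires) and 15.4 to 18.9 over CHG (17.1 ± 1.17), whereas that to other pools was 22.3 to 30.6 and 22.9 to 31.7. The ranges did not overlap, and the own pool was the nearest of 10 for 10 of 10 sires in both contexts. The mean difference to the own pool minus that to the other pools was -10.5 ± 1.38 points (CHH) and -10.6 ± 1.34 points (CHG). The nearest of the other pools was that of the consecutive number for 10 of 10 sires in CHH and 9 of 10 in CHG.

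Pool levels rose stepwise with the band of the sire. Where the sire was under 10%, the median level of its own pool was 6.67% (CHH) and 7.14% (CHG), ranging over the 10 pools from 0 to 10% and 0 to 9.84%. Where the sire was from 30 to 70%, the median was 36.4% and 37.0%, ranging from 34.6 to 37.5% and 35 to 38.9%. Where the sire was 80% or over, it was 66.7% and 68.6%, ranging from 63.6 to 69.9% and 65.6 to 72.0%. The medians under sires at 80% or over were thus below 80% in all 10 pools, and the 3 ranges did not overlap. A sire at 80% or over with its own pool under 10% was seen 16 times among 9040 combinations of sire and CHH cytosine (0.177%) and 3 times among 2474 in CHG (0.121%). A sire under 10% with its own pool over 50%, a looser cut than 80%, was seen 537 times (1.40%) and 162 times (1.66%). With the cut at 80% or over, such pools made up 0.0131% of the CHH combinations with the sire under 10%.

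The same comparison can be made at 1 cytosine, between pools of high and low sires. Of the 4165 CHH cytosines with at least 1 sire at 80% or over and 1 under 10%, the mean of the pools of the high sires exceeded that of the low sires at 4143 (99.5%), by a median of 43.9 points. For CHG it did so at 1093 of 1102 (99.2%), by a median of 43.7 points. In F2 the grandsons of high sires exceeded those of low sires at 1722 of 2133 CHH (80.7%) and 77.5% of 533 CHG cytosines, by medians of 21.98 and 20.5 points. The median difference was thus smaller in grandsons than in pools. Only cytosines listed in each generation enter, so the sets are not the same, and a pool averages several animals where a grandson is a single ram.

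**Figure D2:**
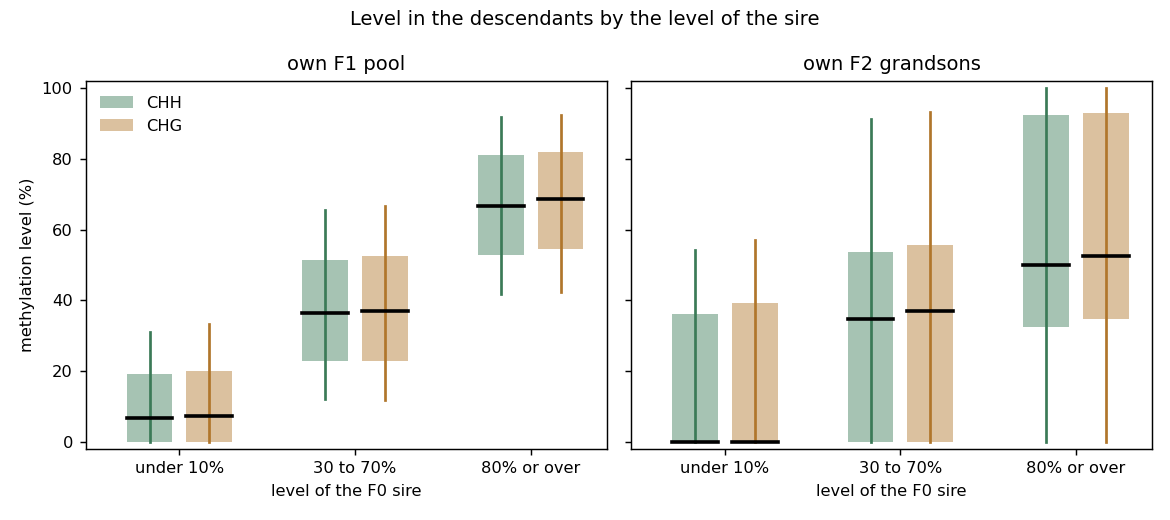
Methylation level, in percent, of the own F1 pool and own F2 grandsons by the level of the F0 sire, for CHH and CHG, with black lines for medians, boxes for the quartiles and thin lines from percentile 10 to percentile 90. Pool medians rise from under 10% to 66.7% (CHH) and 68.6% (CHG) with the band of the sire, and medians of grandsons from 0% to 50% and 52.4%.

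Among F2 rams the 2 grandsons of a sire were closer to each other than to other grandsons. Mean absolute difference was 21.3 to 25.5 points over CHH (23.1 ± 1.28, SD, n = 10 sires) for grandsons of 1 sire and 23.2 to 30.2 for those of different sires. Over CHG it was 22 to 25.4 (23.6 ± 1.24) against 24.5 to 32.03. The difference within a pair minus that of its 2 rams to other grandsons was -4.65 ± 1.22 points (CHH) and -4.99 ± 1.16 points (CHG). The nearest ram had the same sire for 17 of 20 grandsons in CHH and 18 of 20 in CHG. The exceptions descend from 2 control sires, both grandsons of 4C and 1 of 12C in CHH, and 1 of each in CHG. A grandson of 4C, for example, was 23.2 points over CHH from a grandson of sire 3T, and 24.5 points from the other grandson of 4C.

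Agreement by band had the same order. Grandsons of 1 sire were in the same band at 60.2% of CHH and 60.0% of CHG cytosines on average, and grandsons of different sires at 52.1% and 51.1%. They were in opposite bands, 1 ram under 10% and the other at 80% or over, at 3.14% and 3.34%, against 6.06% and 6.38%. From sire to own grandsons the mean absolute difference was 22.8 to 27.7 points (CHH) and 24.4 to 29.1 (CHG), and to grandsons of other sires 26.4 to 32.2 and 26.8 to 34.1. These ranges overlapped, yet the own grandsons were the nearest of the 10 families for 10 of 10 sires in both contexts. Over the 196 CHH and 48 CHG cytosines with at least 20 reads in every F0 and F2 ram, they were so for 8 and 7 of 10 sires.

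**Figure D3:**
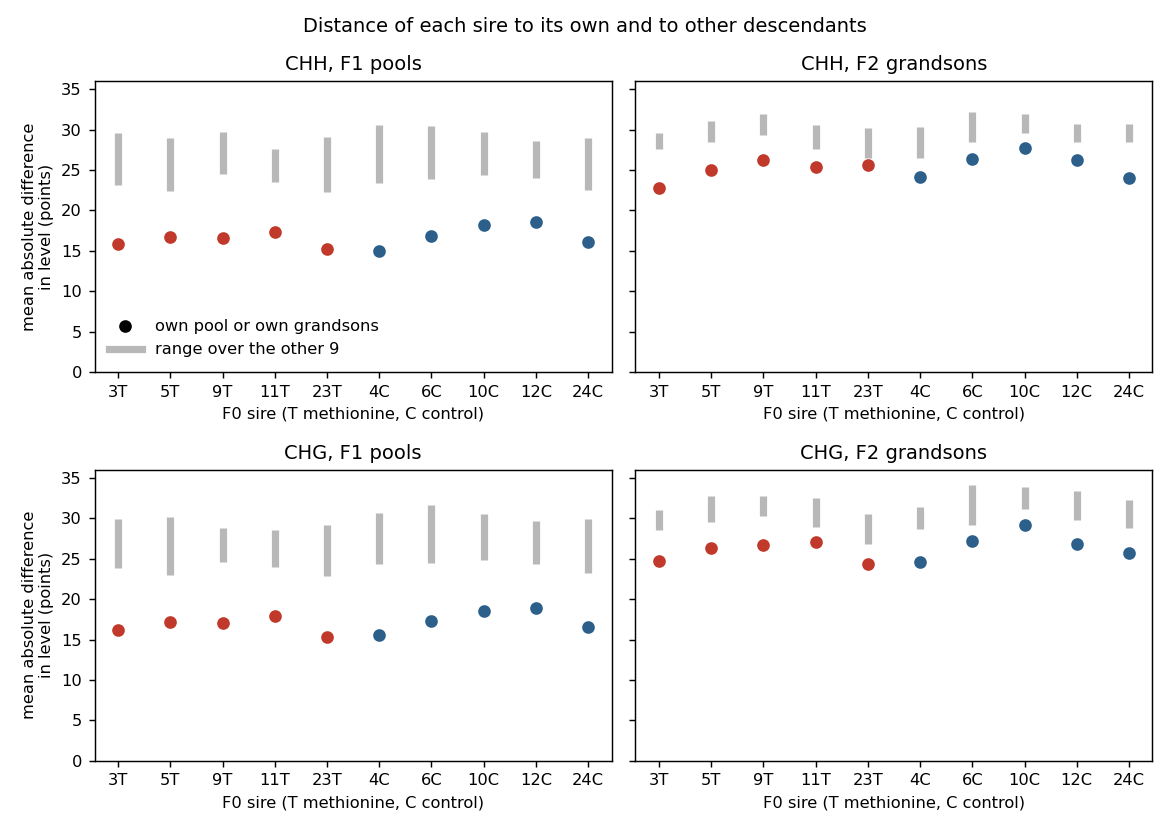
Mean absolute difference in methylation level, in percentage points, between each F0 sire and its own F1 pool or F2 grandsons (points, red for methionine and blue for control sires), with grey bars for the range over the other 9 pools or families, CHH above and CHG below. Every point lies under its bar, by a wider gap for the pools, where the own values reach 18.6 (CHH) and 18.9 points (CHG), than for the grandsons.

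The level of a grandson also moved with that of the sire, with more exceptions than in the pools. A pool averages several animals, and a grandson is a single ram of a later generation, so the shares of exceptions are not like for like. Where the sire was under 10%, the median grandson was at 0 in both contexts. The median was 34.8% (CHH) and 36.8% (CHG) where the sire was from 30 to 70%, and 50% and 52.4% where the sire was 80% or over. A sire at 80% or over had a grandson under 10% in 1567 combinations of sire, grandson and CHH cytosine (17.4%) and 431 of CHG (17.7%).

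Cytosines methylated in a single ram allow families to be followed one by one. At 583 CHH and 140 CHG cytosines 1 ram was over 50% and the other 9 under 10%. Each ram had such cytosines, from 22 (11T) to 93 (10C) in CHH and from 7 (5T) to 25 (4C) in CHG. The median level of the methylated ram was 57.1% and 58.3%, and 26 and 9 of the levels were 80% or over, so single methylated rams mostly fell in the middle band.

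In the pools, 428 of these CHH and 95 of these CHG cytosines were listed. The pool of the methylated sire was the highest of the 10 at 291 (68.0%) and 64 (67.4%), with a median level of 29.7% and 31.8%, while the median of the other pools was 0. The own pool was nevertheless under 10% at 53 and 13 cytosines. Of the levels of other pools, 78.8% and 75.2% were under 10% and the remainder were at 10% or over. No pool reached 10% at 18 and 3 cytosines.

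In F2, 248 of the CHH and 52 of the CHG single-ram cytosines were listed. Neither grandson of the methylated sire exceeded 10% at 117 and 21, 1 of the 2 did at 69 and 10, and both did at 62 and 21. The grandsons over 10% had median levels of 46% and 54.6%, and 153 of 193 (79.3%) and 38 of 52 (73.1%) of those levels lay from 30 to 70%. The family of the methylated sire had the highest mean of the 10 families at 63 CHH (25.4%) and 27 CHG cytosines (51.9%). Of the family means of the other sires, 73.0% and 69.9% were under 10% and the remainder at 10% or over.

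Named examples were taken by coverage and not by diet difference: among the 579 CHH and 161 CHG cytosines listed in all 3 generations with at least 2 F0 rams in each band, the 4 of each context with the highest smallest coverage. They show how the bands look when each level rests on many reads. Levels of single samples have exact Clopper-Pearson 95% intervals, which cover counting error only.

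The best covered CHH cytosine lies at position 71143351 of chromosome 1 (plus strand), with 107 to 178 reads per F0 ram. In the methionine rams the levels were 48.7% (3T), 47.2% (5T), 41.8% (9T), 45.8% (11T) and 0% (23T), and in the control rams 49.0% (4C), 1.92% (6C), 49.1% (10C), 97.4% (12C) and 97.2% (24C). The interval of ram 3T ran from 39.4 to 58.1%, that of 23T from 0 to 2.80% and that of 12C from 92.5 to 99.5%. The cytosine was chosen for its coverage and for rams in each band, so these intervals describe it and test nothing. The pools were at 57.7% (3T), 37.0% (5T), 14.8% (9T), 96.8% (11T) and 24.6% (23T), and at 37.2% (4C), 25.6% (6C), 74.2% (10C), 50% (12C) and 53.4% (24C). Pool 11T stood at 96.8% where sire 11T had been at 45.8%. The F2 rams of the methionine line ranged from 0 to 96.8% (median 43.2%) and those of the control line from 0 to 65.9% (median 44.96%). Both lines held rams at 0 and rams in the middle band, and the exact permutation p for diet was 0.913 in F1 and 0.675 in F2 over sire means.

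The CHH cytosine at position 55814056 of chromosome 14 (plus strand) had 94.4, 53.1, 44.9, 47.1 and 1.12% in rams 3T, 5T, 9T, 11T and 23T, and 96.6, 46.8, 47.4, 0 and 50.5% in rams 4C, 6C, 10C, 12C and 24C. Rams 3T and 4C were both in the upper band. Its pools held 66.3, 78.4, 50.7, 53.0 and 39.7% in the methionine line and 85.5, 50.5, 53.8, 27.3 and 88.2% in the control line, in the same order of sires. No pool was under 10%, and the 2 lowest pools were those of the 2 lowest sires. In F2, 2 rams were under 10%, 10 from 30 to 70% and 8 at 80% or over.

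At position 22892805 of chromosome 19 (minus strand) rams 5T and 6C were both at 0%, and rams 3T, 9T, 23T, 10C and 24C were between 89.2 and 100%. The pools of 5T and 6C were the lowest of the 10, at 15% and 18.6%, and the pool of 10C was the highest, at 96.4%. All 4 grandsons of these 2 sires were at 0%. The fourth CHH example, position 49887153 of chromosome 22 (minus strand), had rams 23T and 12C at 0%, 9T and 10C at 98.0 and 100%, and the other 6 between 36.2 and 62.8%. Both consecutive rams 9T and 10C were high, while both grandsons of 10C were at 0%.

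Among the CHG examples, position 29419076 of chromosome 4 (plus strand) had 1.79, 46.5, 96.1, 1.41 and 82.1% in rams 3T, 5T, 9T, 11T and 23T, and 0, 0, 41.4, 0 and 87.3% in rams 4C, 6C, 10C, 12C and 24C. The pools in the same order of sires were at 10.3, 23.6, 58.5, 0 and 50% and at 0, 2.70, 37.5, 0 and 33.8%. All 4 pools under 10% belonged to sires under 10%. The grandsons of 9T were at 96.2 and 50%, and of the grandsons of 24C 1 was at 90.3% and the other at 0%.

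The CHG cytosine at position 40306708 of chromosome 8 (minus strand) had rams 3T, 11T, 4C and 12C between 90.3 and 96.5%, rams 5T, 23T, 6C and 24C between 42.2 and 48.0%, and rams 9T and 10C at 0 and 1.47%. Pools 9T and 10C were at 10.3 and 40.5%. Position 72200861 of chromosome 9 (minus strand) had rams 5T and 6C at 0%, rams 9T, 23T, 10C and 24C between 88.5 and 94.4%, and rams 3T, 11T, 4C and 12C between 43.5 and 53.6%. At position 240919549 of chromosome 2 (plus strand) rams 9T and 23T were at 0%, and so were their pools and all 4 of their grandsons. At each of these CHH and CHG examples no F0 ram lay between the 3 bands.

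**Figure D4:**
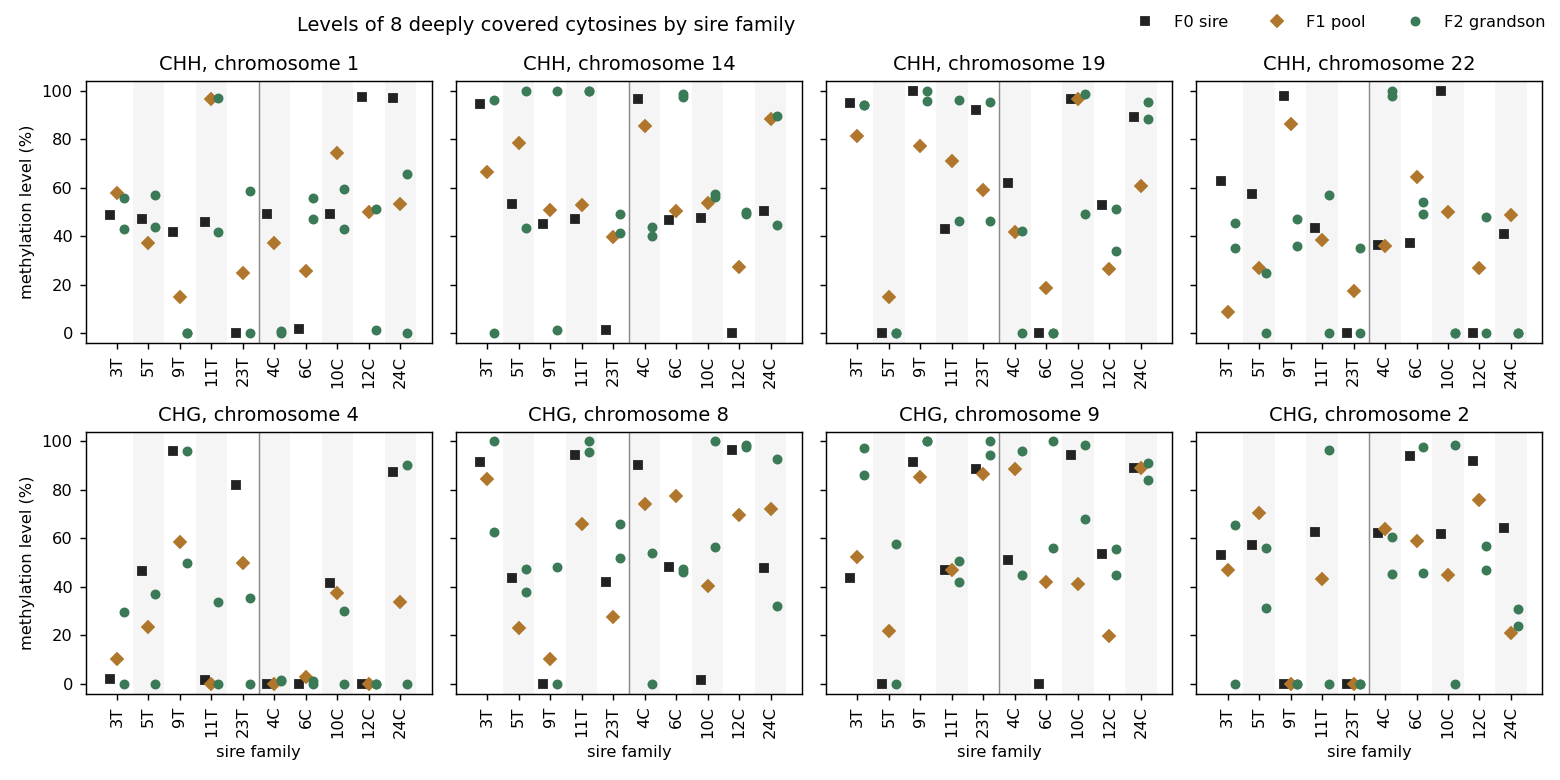
Methylation level, in percent, of the F0 sire (squares), F1 pool (diamonds) and F2 grandsons (circles) of each sire family at the 8 well-covered polymorphic cytosines, methionine families left of the vertical line and control families right of it. F0 and F2 levels gather near 0, 50 and 100%, while pool levels lie at and between these values.

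Diet comparisons at these 8 well-covered cytosines passed 0.05 in no exact permutation test over pools or sire families. These two-sided tests of 5 against 5, whose smallest possible p is 0.00794, gave unadjusted exact p-values from 0.135 to 0.913 in F1 and from 0.0794 to 0.952 in F2, where the mean of the grandsons of a sire was the unit. A test that sums reads over the animals of a group, described next, passed its threshold in F1 or F2 at 3 of the 8. At the chromosome 2 CHG cytosine, for example, the summed reads of the methionine line were 24.7 points lower in F2, with an adjusted p of 8.97e-10 by the likelihood-ratio test, beside an exact permutation p of 0.0794.

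Diet was compared over all polymorphic cytosines in F1 and F2 with a likelihood-ratio test at single cytosines, on reads summed within each group. It was fitted at every listed cytosine and adjusted over all of them by the Benjamini-Hochberg method, and a cytosine was called where the lines differed by 20 points or more with an adjusted p no larger than 0.01. This test takes reads and not animals as the unit, so spread between animals of a group does not enter.

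In F1, 310 of 8621 polymorphic CHH cytosines were called (3.60%), 151 higher and 159 lower in the methionine line, against 0.00535% of all listed CHH cytosines. In CHG, 86 of 2202 were called (3.91%), 37 higher and 49 lower, against 0.00605%. The median size of a called difference was 27.9 points (CHH) and 29.3 (CHG). A cytosine without levels far from 0 cannot reach 20 points, so the share was also taken among cytosines that did. Of the 892 polymorphic CHH cytosines with at least 20 points 34.8% were called, against 29.1% of all 1527 listed, and of the CHG cytosines of that size 34.1%, against 29.1% of 430 listed. Polymorphic cytosines made up 69.7% (CHH) and 68.8% (CHG) of all F1 calls in these contexts, and 37.7% and 44.3% of all F2 calls.

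In F2, 594 of 4475 polymorphic CHH cytosines were called (13.3%), 300 higher and 294 lower, against 0.0266% of all listed, and 189 of 1060 CHG cytosines (17.8%), 91 higher and 98 lower, against 0.0306%. Median called sizes were 25.7 and 24.7 points. Nearly all differences of 20 points passed the test in F2, at 98.2% of 605 polymorphic and 94.8% of 1660 listed CHH cytosines, and 99.0% of 191 and 97.0% of 440 CHG cytosines. Here too the listed cytosines include the polymorphic ones. Calls went in both directions in similar numbers in both generations. Both descend from the rams whose levels chose the cytosines, so the shares called are not independent of that choice. Of the F1 calls, 121 of 310 CHH and 32 of 86 CHG were also called in F0, all in the same direction. Of the F2 calls, 75 of 594 CHH and 24 of 189 CHG were, 55 and 21 in the same direction. The matching counts over all listed cytosines were not computed, and the part of sire family in these calls was not tested.

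**Figure D5:**
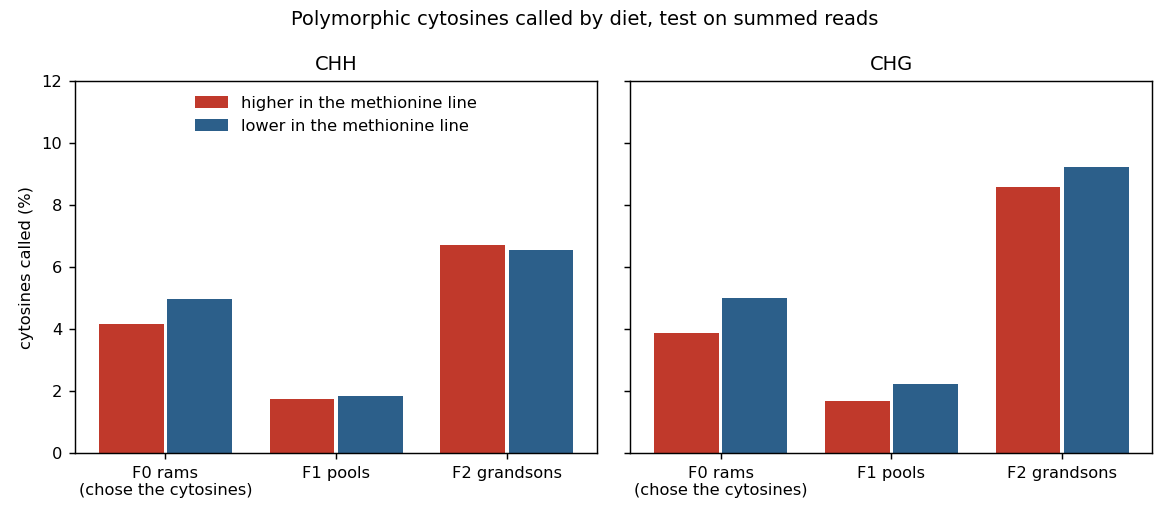
Percent of polymorphic cytosines called between the methionine and control lines by the likelihood-ratio test on summed reads (20 points or more, adjusted p no larger than 0.01), by generation, context and direction, with F0 shown as the levels that chose the cytosines. Calls split almost evenly by direction in the descendants, 151 higher and 159 lower in F1 CHH and 300 and 294 in F2 CHH.

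Samples of a group spread widely at the called cytosines. The median SD within groups at called cytosines was 18.6 (CHH) and 19.03 points (CHG) in F1 and 30.2 and 30.1 points in F2, below the median called difference in F1 and above it in F2. Over the samples of both lines together, 210 of 310 called CHH and 67 of 86 called CHG cytosines had a level over 50% and one under 10% in F1. In F2, 585 of 594 and 184 of 189 did. Among all polymorphic cytosines listed, 46.1% (CHH) and 47.0% (CHG) did in F1, and 86.5% and 87.7% in F2. These counts do not separate spread within a line from a difference between lines. The 5 methionine pools lay wholly on 1 side of the 5 control pools at 40 polymorphic CHH cytosines (0.464%) and 16 CHG (0.727%), against 0.00584% and 0.00479% of all listed. Of the called cytosines, 22 of the 310 CHH and 5 of the 86 CHG were among them. A cytosine with a pool at 0 in each line cannot be apart, which lowers the shares of all listed. Without ties, a random split of 10 pools into 5 and 5 sets the groups apart with probability 0.00794. Nothing on diet is read from these shares. In F2 the lines overlapped at every polymorphic cytosine, as they did at every listed one, where 0 (0%) were apart.

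With limma, which sets the group difference against the spread between samples, no polymorphic cytosine passed an adjusted p of 0.01 and 20 points in F1 or F2, in either context. Nor did any listed cytosine. At an unadjusted p under 0.05 with at least 20 points, limma marked 265 polymorphic CHH (3.07%) and 82 CHG cytosines (3.72%) in F1, against 0.00597% and 0.00735% of all listed. In F2 it marked 273 (6.10%) and 74 (6.98%), against 0.0124% and 0.0123%. Here too, a cytosine without levels far from 0 cannot reach 20 points. With the mean of each sire's grandsons as the unit, 160 CHH (3.58%, 98 higher and 62 lower in the methionine line) and 52 CHG (4.91%, 15 higher and 37 lower) were marked in F2, against 0.00764% and 0.00832%. Cytosines with identical levels in all samples limit this fit: 48.1% of listed CHH and 46.7% of CHG cytosines had no spread in F1, and 16.4% and 15.5% in F2.

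Mean levels over the polymorphic cytosines differed little between the lines. In F1 they were 28.7 ± 0.226% in the methionine and 28.9 ± 0.434% in the control pools for CHH (SD, n = 5 and 5), and 29.5 ± 0.631% and 30.3 ± 0.483% for CHG. In F2 they were 28.3 ± 1.22% and 27.9 ± 1.10% for CHH (SD, n = 10 and 10), and 29.98 ± 1.05% and 29.9 ± 1.08% for CHG. In F0, which chose the cytosines, they were 29.7 ± 0.691% and 30.7 ± 0.257% for CHH, and 30.3 ± 1.08% and 31.4 ± 0.363% for CHG. No test was run on these means.

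In F0 itself the same criteria marked 1072 polymorphic CHH cytosines (9.13%), 488 higher and 584 lower in the methionine rams, and 264 CHG (8.87%), 115 higher and 149 lower, against 0.0145% and 0.0142% of all listed. These are the levels that chose the cytosines, and nothing is read from them.

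Calls were followed from F1 to F2 as a description, since both generations descend from the same 10 sires. Of the polymorphic cytosines listed in both, 43 CHH and 14 CHG were called in both generations, 39 and 14 of them in the same direction. Of the 3788 CHH cytosines listed in both, 173 were called in F1 and 518 in F2. The matching counts over all listed cytosines were not computed, so nothing is read from this overlap, which serves only to define the examples that follow.

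The cytosines called in F1 and F2 with the largest shared differences were chosen for those differences, so no test is given for them. At position 114200299 of chromosome 6 (minus strand, CHH) the summed reads of the methionine line were 52.8 points higher in F1 and 46.7 higher in F2. The methionine rams stood at 93.8, 40.6, 47.4, 34.4 and 37.5% (3T, 5T, 9T, 11T and 23T), and the control rams at 64.3% (4C), 0% (6C, 12C and 24C) and 3.45% (10C). Pools 3T, 9T, 11T, 23T, 4C and 6C were between 48.3 and 87.5%, pool 5T was at 15.4%, and pools 10C, 12C and 24C were at 0%. The lines overlapped in all 3 generations, with ram 4C above 4 of the methionine rams in F0 and pool 5T below pools 4C and 6C in F1.

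At position 59785592 of chromosome 9 (plus strand, CHH) the F1 and F2 differences were 35.6 and 38.9 points, both higher in the methionine line. The F0 sires did not follow that split, since 3T, 5T and 11T were at 0% while 10C was at 71.4%, 12C at 42.9% and 24C at 35.7%. In F2 the methionine line ranged from 0 to 100% (median 44.97%), and the control line held 1 ram at 52.6% with the other 9 between 0 and 3.03%. At position 2113011 of chromosome 17 (minus strand, CHH) the methionine line was lower by summed reads, with a median F2 level of 7.50% against 88.4% in the control line. At position 41955103 of chromosome 23 (plus strand, CHH) the F2 medians were 49.0% and 92.3%. Both lines held F2 rams above 80% at each of these 2 positions, so the groups overlapped.

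Of the CHG cytosines chosen in this way, position 20888254 of chromosome 21 (minus strand) had F2 levels from 0 to 100% (median 37.7%) in the methionine line and from 48.0 to 100% (median 74.1%) in the control line. Its 5 methionine pools were at 5.71, 44.4, 70.6, 36.6 and 20.5% and its 5 control pools at 77.4, 66.7, 89.3, 42.6 and 91.7%. Control pools 12C (42.6%) and 6C (66.7%) lay within the range of the methionine pools. At position 10014358 of chromosome 2 (plus strand) the F2 medians were 51.3% in the methionine and 93.8% in the control line, at position 5508435 of chromosome 15 (plus strand) 57.8% and 20.6%, and at position 87167429 of chromosome 3 (plus strand) 24.4% and 1.22%. At the last of these, sires 3T and 23T were at 95.8 and 100% and control sire 24C at 93.3%, and its pools 3T, 23T and 24C were the 3 highest, at 92.9, 76.5 and 85.7%.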

How the data were processed

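Per the labels and the study's methods, the authors trimmed reads with Trim Galore, aligned them to Oar_rambouillet_v1.0 with Bowtie2 within Bismark, removed duplicate reads and extracted calls by context. The deposited tables hold, per cytosine and sample, the counts of methylated reads and of all reads, for cytosines that no sample of a generation covered with fewer than 10 reads. F1 samples were sequenced as pools of several animals each. Levels were computed as 100 times methylated over all reads. The polymorphic cytosines, the named ones and the marker lists were chosen with earlier results of these data known. The F2 RNA table holds deposited read counts per gene (805831 to 13137757 per library), used only for marker genes.

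Groups came from the titles and treatment labels, and sire families from the number in the title. Differences between lines were tested with a likelihood-ratio test on summed counts over all listed cytosines, adjusted by Benjamini-Hochberg, and with limma 3.58.1 (R 4.3.3) on levels. The likelihood-ratio p-values and the exact intervals of levels came from scipy 1.17.1. Named cytosines were tested with exact permutation over all splits, 5 pools against 5 in F1 and 5 sire families against 5 in F2. Nothing in the labels says that samples came from separate ejaculates or days, so limma and permutation p-values measure the spread between these samples only. The likelihood-ratio p-values rest on summed reads and do not measure that spread. The test code was checked on simulated counts. Named cytosines were the 4 per context with the highest smallest coverage among those with at least 2 F0 rams in each band, the 4 with the largest smaller difference among those called in F1 and F2 in 1 direction, and those nearest to each threshold. Alternatives covered coverage, thresholds, bands, the distance measure, limma and leaving out samples. Unplaced and sex chromosome sequences were left out of the polymorphic cytosines but not of the adjustment.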

Additional observations from a re-analysis of the deposited data

Results flagged for a closer look

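Samples that stood apart from the others of their group were looked for with Dixon's test in 162 groups of values, each of 5 or 10 samples, and 14 passed the 95% critical value, where chance flags about 1 in 20 groups. In 2 cases the value was over all polymorphic CHG cytosines: the mean level of F0 control ram 24C was 32.01%, against 31.1 to 31.3% in the other 4 control rams, and F1 control pool 6C had 436 cytosines over 50%, against 502 to 527. The other 12 were single levels at named cytosines, where levels fall in bands, so a lone sample in a band of its own passes. The F0 levels chose the polymorphic cytosines, and the named cytosines were chosen for rams in each band or, on chromosomes 6, 9, 17 and 23, for their F1 and F2 differences between lines. The chance rate does not apply to F0 values or to levels at cytosines chosen for those differences, which are given as descriptions.

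In F0, methionine ram 23T was at 0% at 2 CHH cytosines, position 71143351 of chromosome 1 (others 41.8 to 48.7%) and position 41955103 of chromosome 23 (others 44 to 50%). Control ram 24C was at 47.8% at the latter, with the other control rams from 88.2 to 100%. At the CHH cytosine 114200299 of chromosome 6, control ram 4C was at 64.3% (others 0 to 3.45%) and methionine ram 3T at 93.75% (others 34.4 to 47.4%). In F1, control pool 10C was at 40.5% at the CHG cytosine 40306708 of chromosome 8 (others 69.8 to 77.5%), control pool 24C at 20% at the CHH cytosine 59785592 of chromosome 9 (others 0 to 5.56%), and methionine pool 11T at 60% at the CHH cytosine 2113011 of chromosome 17 (others 6.90 to 20.8%).

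In F2, at the CHG cytosine 29419076 of chromosome 4, a grandson of 24C was at 90.3% (other control rams 0 to 30%) and a grandson of 9T at 96.2% (other methionine rams 0 to 50%). A grandson of 6C was at 52.6% at the chromosome 9 CHH cytosine (other control rams 0 to 3.03%), and a grandson of 11T at 88.2% at the chromosome 17 CHH cytosine (other methionine rams 0 to 43.6%).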

How the results depend on the processing

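Of 226 recomputed values under other settings, 196 stayed within the tolerance set for them, 30 moved and 0 reversed. Counts and shares have no direction, so only the differences in distance could reverse. The tolerance for counts was wide: a change from 310 to 441 F1 CHH calls stayed within it. All 140 that left out 1 F0 ram or 1 sire family were among the 196. Without 1 ram the polymorphic cytosines numbered 10901 to 11287 (CHH) and 2762 to 2883 (CHG). Without 1 sire family, which is 1 pool in F1 and 2 rams in F2, F1 calls numbered 269 to 441 and 76 to 119, F2 calls 636 to 760 and 183 to 214, the difference of sire to own pool minus other pools was -10.7 to -10.1 and -10.8 to -10.2 points, and that of grandsons of 1 sire minus others -4.89 to -4.44 and -5.14 to -4.81 points.

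The number of polymorphic cytosines depended on the rule: 2659 CHH and 617 CHG with at least 20 reads in every ram, 5992 and 1562 with an upper threshold of 75%, and 5859 and 1547 with at least 2 rams on each side. With at least 20 reads, F1 calls fell to 154 and 32, and F2 calls to 33 and 5, where fewer cytosines were tested. A threshold of 25 points left 328 and 93 calls in F2. By limma at an adjusted p of 0.01 there were 0 calls in F1 and in F2 in both contexts, also 0 over sire means. With at least 20 reads, grandsons of 1 sire minus others gave -3.49 points over 48 CHG cytosines.

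Shares of the middle band moved with its limits. From 25 to 75% it held 40.3% of CHH levels for F0 rams, 44.2% for pools and 35.7% for F2 rams, and 40.5%, 44.7% and 36.7% of CHG levels. With at least 20 reads, the 30 to 70% band held 38.8% (F0) and 33.95% (F2) of CHH levels, and 40.4% (F0) and 36.9% (F1) of CHG levels. The share of CHH positions directly followed by a listed cytosine, an alternative chosen after seeing the data, was 2.63% with at least 20 reads. The share followed by A in the reference was planned but not run, since no sequence of this assembly was used. The cause of these shifts was not tested. The F0 design was paired by twins, but no paired analysis was run because the methionine and control groups share no replicate numbers and the labels do not name the twins. All tests between lines therefore treated the sire families as unpaired. Levels from about 10 reads carry wide counting error, which limits single levels more than shares over many cytosines.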
